A study of Mus musculus with 5 samples.

Results

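Lens RNA-binding proteins linked to cataract were represented by 5 genes (Tdrd7, Caprin2, Celf1, Rbm24 and Carhsp1), chosen by symbol as post-transcriptional regulators of the lens out of 22183 genes in the deposited table. All 5 were present once, and all 5 passed the filter on low counts. RNA was measured in whole lenses of mice at postnatal day 14 in 5 libraries, each made from a pool of 4 to 6 lenses. The cKO group (2 libraries) came from Yap1 f/f;Cre or Yap1 f/+;Cre mice, which lose one or both copies of the transcriptional co-activator gene Yap1 where Cre acts. The Ctrl group (3 libraries) came from littermates with Yap1 f/f or Yap1 f/+ alleles and no eye abnormality, and the genotype label calls them WT. The cKO lenses were selected by a severe phenotype, a small eye with a closed pupillary membrane, and both genotypes could enter a pool, so the values describe severely affected lenses rather than 1 genotype. Neither the Cre driver nor the cells in which it acts is named in the sources used here.

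A lens fibre cell fills its cytoplasm with crystallin, then degrades its nucleus and other organelles, and lives on without new transcription. RNA-binding proteins set how long such messages last, where they lie and how often they are translated, and loss of several of them clouds the lens. TDRD7 is a Tudor-domain protein of cytoplasmic RNA granules whose loss causes cataract in humans and mice. CAPRIN2 is an RNA-granule protein that is induced in fibre cells and also binds the Wnt co-receptor LRP6. CELF1 binds GU-rich elements and controls splicing, decay and translation, and RBM24 binds AU-rich elements and stabilises messages in muscle and lens. CARHSP1 is a small calcium-regulated cold-shock-domain protein known in macrophages for stabilising Tnf mRNA.

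Caprin2 and Tdrd7 fell in cKO lenses, and the other 3 genes did not pass the test. Caprin2 (ENSMUSG00000030309) was at 0.25 times its Ctrl level and Tdrd7 (ENSMUSG00000035517) at 0.563 times. Celf1 (ENSMUSG00000005506), Rbm24 (ENSMUSG00000038132) and Carhsp1 (ENSMUSG00000008393) had fitted ratios of 0.744, 0.771 and 0.939. Thus 2 of 5 genes were lower and 0 higher in edgeR's quasi-likelihood test, at a Benjamini-Hochberg adjusted p under 0.05. Of all 11724 genes tested, 7.73% were lower, 5.76% were higher and 13.5% were called in either direction. The 5 genes were chosen with earlier results of these data known, so these shares are a description and not independent support. DESeq2 and limma on log2(FPKM + 1) also called 2 of the 5 lower and 0 higher, where over all genes DESeq2 called 10.3% higher and 13.0% lower, and limma 11.8% higher and 6.34% lower. At an unadjusted p under 0.05, Rbm24 would join the lower genes, and of all genes tested 17.4% were lower, 14.8% higher and 32.2% in either direction at that level. In these bulk samples, fewer cells of a type and less RNA per cell cannot be told apart.

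The promoters of the 2 lower genes are shown because YAP1 has no DNA-binding domain of its own and reaches DNA through TEAD proteins, whose core motif is CATTCC. RefSeq sequence of build GRCm38.p6 was used, 250 bases before each annotated start; the submitters' processing notes name GRCm39, so these positions serve only to identify the sequences. Capitals mark the ETS core CCGGAA in Caprin2 and TATAAA in Tdrd7; both were picked after the sequences had been read. The Caprin2 sequence is chr6:148896238-148896487 on the minus strand, and the Tdrd7 sequence, before the first of 3 annotated starts, is chr4:45965085-45965334 on the plus strand.
Caprin2: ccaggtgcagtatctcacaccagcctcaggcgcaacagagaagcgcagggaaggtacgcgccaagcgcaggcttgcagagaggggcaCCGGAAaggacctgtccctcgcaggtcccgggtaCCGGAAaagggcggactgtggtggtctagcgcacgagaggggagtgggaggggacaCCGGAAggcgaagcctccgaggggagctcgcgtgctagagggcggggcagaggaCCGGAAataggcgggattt
Tdrd7: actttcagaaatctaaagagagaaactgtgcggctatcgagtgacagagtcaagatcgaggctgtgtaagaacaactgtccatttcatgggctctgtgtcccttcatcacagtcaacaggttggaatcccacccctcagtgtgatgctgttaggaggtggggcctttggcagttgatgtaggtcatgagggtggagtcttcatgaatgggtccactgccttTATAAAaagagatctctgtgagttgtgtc

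CATTCC was absent on both strands from all 7 windows of the 5 genes (1 each, and 3 for Tdrd7), also when the 50 bases after the start were included. The motif was present in 12.6% of the 32851 RefSeq promoter windows of 250 bases, and in 14.7% with the further 50 bases. The Caprin2 window held 4 copies of CCGGAA, all on the strand shown, whereas 32 of the 32851 windows (0.0974%) had 4 or more on both strands together (a palindromic site counting on each strand), and 12.0% had any. None of the other 6 windows of the 5 genes held it. TATAAA began 29 bases before the first Tdrd7 start and was seen on the gene's strand in 7.59% of all windows. The other 2 Tdrd7 windows lacked TATAAA and had 28 and 29 CpG dinucleotides, against 3 in the first, with a median of 6 over all windows. A match of letters is a description, and which Tdrd7 start is used in the lens cannot be read from counts per gene.

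The targeted gene had fewer counts in both cKO pools than in any Ctrl pool. Yap1 had 92 and 61 counts in cKO pools 1 and 2, against 155, 133 and 143 in Ctrl pools 1, 2 and 3. Its fitted log2 fold change was −1.08 (SE 0.33, edgeR adjusted p = 0.0759; DESeq2 called it lower and limma did not), and the count spans the whole gene, so it does not isolate the floxed part. Libraries held 22672136 to 24320287 counts in cKO and 22047553 to 25762805 in Ctrl, and 12028 to 12602 genes were detected in cKO and 13972 to 14199 in Ctrl. Lens fibre markers were abundant throughout, with 13 genes summing to 281700 and 213100 CPM (counts per library total of equal size, with TMM factors applied) in cKO and 224700 to 262500 CPM in Ctrl; edgeR called 2 of 13 tested, Bfsp1 and Lgsn, lower. Lens epithelial markers summed to 1286 and 2632 CPM in cKO and 2036 to 2321 CPM in Ctrl, with 4 of 9 lower (Cdh1, Pax6, Gja1 and Npnt) and 0 higher. Most of each sum was Dkk3 and Sfrp1, neither of them called. Dkk3 alone had 906 and 1885 CPM in cKO and 1274 to 1495 CPM in Ctrl. Cdh1 had 1 and 0 counts in cKO, against 440 to 986 in Ctrl. Gja1 averaged 1.11 CPM in cKO and 50.6 CPM in Ctrl. Foxe3, called lower by DESeq2 and limma but not by edgeR, averaged 2.07 CPM in cKO and 21.1 CPM in Ctrl. Macrophage markers summed to 368 and 67.8 CPM in cKO and 2.83 to 4.87 CPM in Ctrl, with 11 of 12 tested genes higher and Ptprc at 0 in every Ctrl pool. Over all genes tested, edgeR called 5.76% higher and 7.73% lower. The Y-linked gene Ddx3y had 0 counts in both cKO pools and 656 to 854 in Ctrl, so sex and genotype cannot be told apart. The part of these markers in the results that follow was not tested.

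Caprin2 showed the largest change of the 5 genes. It had 5326 and 4874 counts in cKO pools 1 and 2, which is 218 and 182 CPM. In Ctrl pools 1, 2 and 3 it had 14802, 18419 and 21136 counts, or 687, 899 and 812 CPM. Both cKO pools were far below the lowest Ctrl pool, and the gap was wider than the spread within either group. The mean was 199 ± 25.5 CPM in cKO (SD, n = 2) and 799 ± 107 CPM in Ctrl (SD, n = 3). Its log2 fold change was −2.0 (SE 0.19, 95% interval −2.46 to −1.54, edgeR adjusted p = 0.00588), and 8.2% of tested genes had a lower one. Without Ctrl pool 2 the change was −1.91 and just missed the threshold (edgeR adjusted p = 0.0575), in a fit that called only 6 genes higher and 15 lower. Over all 12 other settings the adjusted p of Caprin2 ranged from 1.26e-23 to 0.0575.

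Tdrd7 was by far the most abundant of the 5 by CPM and by FPKM. It had 42401 and 44612 counts in cKO pools 1 and 2, or 1732 and 1662 CPM, and 63400, 63676 and 77685 counts in Ctrl pools 1, 2 and 3, or 2941, 3108 and 2983 CPM. The pools of each group lay close together and the groups did not overlap. The mean was 1697 ± 49.6 CPM in cKO (SD, n = 2) and 3011 ± 87.0 CPM in Ctrl (SD, n = 3). Its log2 fold change was −0.83 (SE 0.14, 95% interval −1.16 to −0.49, edgeR adjusted p = 0.0207), and 21.5% of tested genes had a lower one. The Tdrd7 call was lost when any 1 Ctrl pool was left out, with log2 fold changes of −0.81, −0.81 and −0.79 without Ctrl pool 1, 2 and 3 (edgeR adjusted p = 0.0958, 0.123 and 0.1). Calls over all genes fell as well, from 675 higher and 906 lower with all pools. They numbered 26 higher and 39 lower without Ctrl pool 1, 6 and 15 without pool 2, and 30 and 52 without pool 3. Over all 12 other settings the adjusted p ranged from 1.3e-10 to 0.141. By FPKM, which the authors scaled to gene length, Tdrd7 ranked first in Ctrl among the 921 genes annotated with RNA binding in the deposited table, and in cKO came after Eno1 and Hspa8 only. Among all genes it ranked 59 in cKO and 34 in Ctrl, whereas Caprin2 ranked 547 in cKO and 95 in Ctrl.

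**Figure D1:**
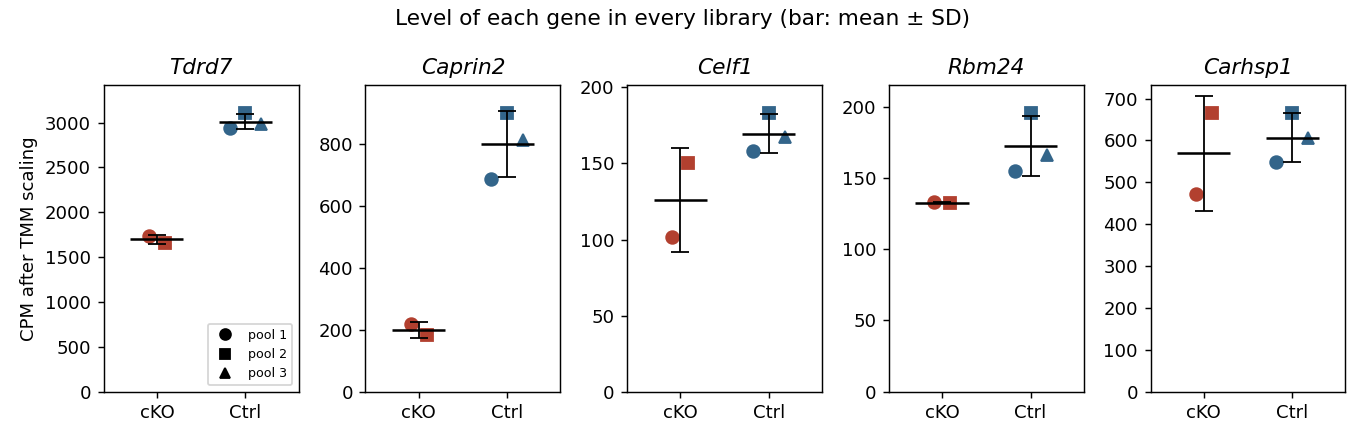
Level of Tdrd7, Caprin2, Celf1, Rbm24 and Carhsp1 (vertical axis, CPM after TMM scaling, from 0, a separate scale per gene) in the 2 cKO pools and the 3 Ctrl pools; symbols give the pool number, the horizontal bar the mean and the whiskers the SD. Both cKO pools lie below every Ctrl pool for all genes but Carhsp1, and relative to their level the cKO pools are furthest apart for Celf1 (1.47 times) and Carhsp1 (1.41 times).

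Celf1 differed more between the cKO pools than between the groups' nearest pools. It had 2495 and 4032 counts in cKO pools 1 and 2, or 102 and 150 CPM, against 3405, 3756 and 4356 counts in Ctrl pools 1, 2 and 3, or 158, 183 and 167 CPM. Pool 2 of cKO was at 1.47 times pool 1, while the highest Ctrl pool was at 1.16 times the lowest. The log2 fold change was −0.43 (SE 0.20, 95% interval −0.91 to 0.055), which did not pass (edgeR adjusted p = 0.198). With cKO pool 2 left out it was −0.73 and passed (edgeR adjusted p = 0.00828), with the lone cKO pool taken to vary like the Ctrl pools, and with cKO pool 1 left out it was −0.19 (edgeR adjusted p = 0.355). The size of the difference in Celf1 therefore rested on cKO pool 1.

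Rbm24 had the smallest difference in CPM between the cKO pools. It had 3255 and 3561 counts in cKO pools 1 and 2, or 133 CPM in each, against 3340, 4011 and 4327 counts in Ctrl pools 1, 2 and 3, or 155, 196 and 166 CPM. Both cKO pools lay below the lowest Ctrl pool in CPM, by a small margin, whereas in FPKM the groups overlapped. The log2 fold change was −0.38 (SE 0.15, 95% interval −0.75 to −0.0037), which did not pass after adjustment over all genes (edgeR adjusted p = 0.152) or in any of the 12 other settings (adjusted p = 0.108 to 0.573). RBM24 is also a muscle splicing regulator, and 10 striated muscle markers summed to 45.4 and 5.33 CPM in cKO and 16.5 to 17.2 CPM in Ctrl. Myog, Myh3 and Myh8 were at 0 in every library. Of 3 tested muscle genes 0 were called by edgeR (1 at an unadjusted p under 0.05, 1 by DESeq2 and 0 by limma). Over all genes tested, edgeR called 13.5%. The part of the muscle genes in the level of Rbm24 was not tested.

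Carhsp1 had levels that overlapped between the groups. It had 11571 and 17880 counts in cKO pools 1 and 2, or 473 and 666 CPM, against 11839, 13634 and 15759 counts in Ctrl pools 1, 2 and 3, or 549, 666 and 605 CPM. The lowest pool of all 5 was cKO pool 1. In FPKM, cKO pool 2 (276) stood above every Ctrl pool (at most 216). The log2 fold change was −0.09 (SE 0.19, 95% interval −0.56 to 0.38, edgeR adjusted p = 0.787), an interval that reaches to both sides of 0. Its sign was positive with scaling by library totals (0.14), on log2 FPKM with 1 added (0.10) or 0.1 added (0.10), and without cKO pool 1 (0.12). Carhsp1 was lower in cKO pool 1, the pool with 368 CPM of macrophage markers, than in cKO pool 2, with 67.8 CPM. The part of macrophages in the level of Carhsp1 was not tested. Tnf, the message it is known to stabilise in macrophages, had 0 counts in all 5 libraries, where a count of 0 allows up to 3 in each.

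Of the 5 genes, 4 had no overlap of CPM between groups, all with cKO below Ctrl; among all genes tested 51.5% had no overlap and 28.7% had cKO below. In FPKM only 2 of the 5, Tdrd7 and Caprin2, had no overlap, where 51.3% of all genes tested had none and 20.4% had cKO below. Scaling mattered for the small differences. Using library totals in place of TMM moved the median log2 fold change of all genes by 0.22, and gave 1234 higher and 717 lower genes, against 675 higher and 906 lower with TMM. Measured from that median, Caprin2 stood at −1.95 with TMM and −1.96 with totals, Tdrd7 at −0.77 and −0.78, Celf1 at −0.37 and −0.35, Rbm24 at −0.32 and −0.32, and Carhsp1 at −0.04 and −0.02. On log2(FPKM + 1), Carhsp1 stood 0.02 above the median, and the other 4 stayed below it.

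**Figure D2:**
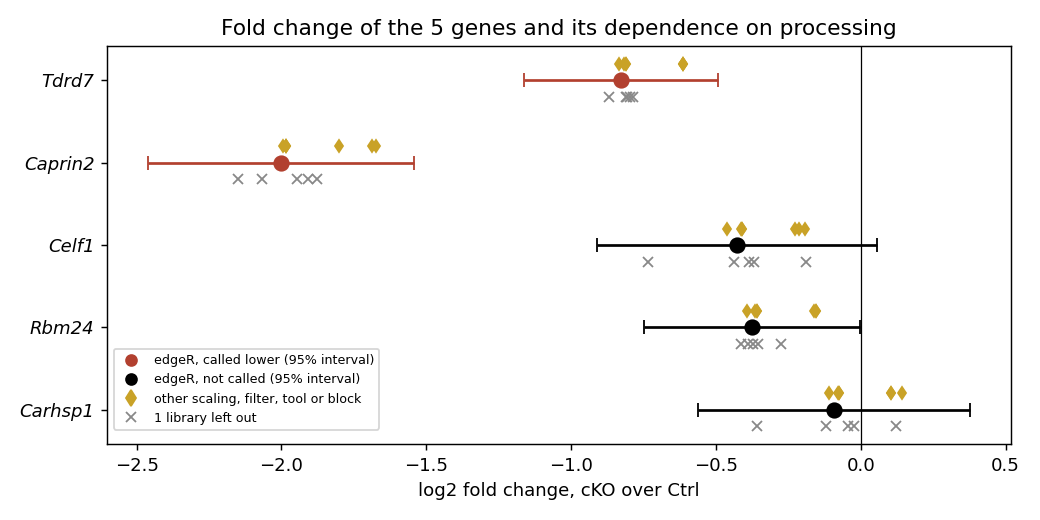
Log2 fold change of each gene, cKO over Ctrl (horizontal axis), with the edgeR estimate and its 95% interval (circle and bar), the other scalings, filters, tools and the replicate block (diamonds) and the fits with 1 library left out (crosses). Every Caprin2 and Tdrd7 estimate is below 0, from −2.15 to −1.67 and from −0.87 to −0.61, and Carhsp1 estimates lie on both sides of 0, from −0.36 to 0.14.

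The order of the 5 genes by FPKM changed in 1 place between the groups. In each cKO pool the order was Tdrd7, Carhsp1, Caprin2, Rbm24, Celf1, and in each Ctrl pool it was Tdrd7, Caprin2, Carhsp1, Rbm24, Celf1. Tdrd7 stood at 477 and 538 FPKM in cKO and at 717, 790 and 825 FPKM in Ctrl, and made up 56.3 to 61.8% of the summed FPKM of the 5 genes in cKO and 59.1 to 63.2% in Ctrl. Caprin2 stood at 70.9 and 67.5 FPKM in cKO and at 182, 250 and 244 FPKM in Ctrl. Carhsp1 stood at 166 and 276 FPKM in cKO and at 171, 216 and 214 FPKM in Ctrl, so that its Ctrl range overlapped that of Caprin2 although Caprin2 was the higher in every Ctrl pool. Rbm24 lay at 43.4 and 50.9 FPKM in cKO and 44.7 to 59.0 FPKM in Ctrl, and Celf1 at 14.1 and 23.9 FPKM in cKO and 19.3 to 22.8 FPKM in Ctrl. These 2 lowest genes kept their places in every library.

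A ratio of 2 genes within 1 library does not depend on how libraries are scaled to one another. The ratios below are of FPKM, so they still depend on the gene lengths used for each library. Caprin2 over Carhsp1 was 0.426 and 0.245 in cKO pools 1 and 2, against 1.06, 1.15 and 1.14 in Ctrl pools 1, 2 and 3. Caprin2 over Rbm24 was 1.63 and 1.33 in cKO, against 4.07, 4.24 and 4.48 in Ctrl, and Tdrd7 over Caprin2 was 6.73 and 7.97 in cKO, against 3.94, 3.16 and 3.38 in Ctrl. Relative to each of the other 4 genes, Caprin2 thus stood lower in both cKO pools than in any Ctrl pool. Tdrd7 over Rbm24 was 11.0 and 10.6 in cKO, against 16.0, 13.4 and 15.2 in Ctrl, and Tdrd7 over Celf1 was 33.8 and 22.5 in cKO, against 37.2, 34.8 and 36.2 in Ctrl. Of 10 pairs, 8 did not overlap between groups, as did 48.8% of all pairs among the 10523 tested genes with FPKM above 0 in every library. Each of the 8 had an exact two-sided permutation p = 0.1 over the 10 ways to divide the libraries into groups of 2 and 3, the smallest possible, and 0.125 after adjustment over the 10 pairs. The pairs share genes and are not separate results. Celf1 over Rbm24 overlapped, at 0.326 and 0.47 in cKO and 0.386 to 0.43 in Ctrl (exact permutation p = 0.8). Rbm24 over Carhsp1 overlapped too, at 0.261 and 0.184 in cKO and 0.254 to 0.273 in Ctrl (exact permutation p = 0.2). Celf1 over Carhsp1 was 0.0849 and 0.0866 in cKO, against 0.105 to 0.112 in Ctrl, so these 2 genes, each higher in cKO pool 2 than in pool 1, kept nearly the same ratio to one another in both cKO pools.

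**Figure D3:**
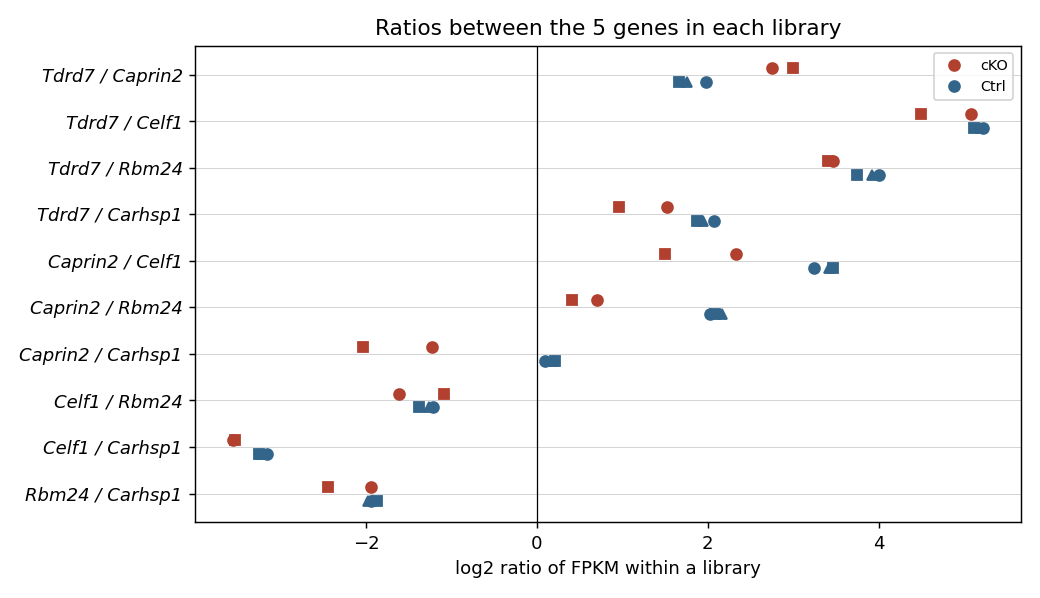
Log2 ratio of FPKM of each of the 10 pairs within a library (horizontal axis), cKO above Ctrl in each row; circles, squares and triangles are pools 1, 2 and 3. The 4 rows with Caprin2 show the widest gaps between groups, and Celf1 over Rbm24 and Rbm24 over Carhsp1 overlap.

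The genes whose profile over the 5 libraries was nearest to each of the 5 were sought among 4286 tested genes with a mean of at least 10 CPM, by the root-mean-square difference of centred log2(CPM + 1). For Tdrd7 these were Nsun2 (0.037), Kpna3 (0.0493) and Ywhag (0.06). For Caprin2 they included Cpsf2 (0.114) and Jpt2 (0.134), with log2 fold changes of −2.08 and −1.85. For Celf1 they were Dner (0.0311), Ap2a2 (0.0372) and Coq2 (0.039), for Rbm24 Mfn2 (0.0406), Kpna1 (0.0469) and Tnks2 (0.0474), and for Carhsp1 Bcar1 (0.0276), Stard3nl (0.0345) and Pomgnt1 (0.0429). None of the 5 was among the 3 nearest genes of another. Among the 5, Celf1 and Carhsp1 were the closest pair (0.169), and Caprin2 and Carhsp1 were the furthest apart (0.955). Even so, Carhsp1 ranked only 260 among the genes nearest to Celf1, and Celf1 only 365 among those nearest to Carhsp1.

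Close relatives of the 5 genes did not pass edgeR's test. Of 26 relatives, 13 were tested and edgeR called 0, where it called 13.5% of all genes tested. At an unadjusted p under 0.05, 2 were higher and 4 lower, where 14.8% of all genes were higher and 17.4% lower. DESeq2 called 2 higher and 3 lower, with Tdrd3 and Csdc2 among the lower ones. Limma on log2(FPKM + 1) called 2 higher and 0 lower. Caprin1, the widely expressed paralogue of Caprin2 and a stress-granule protein gene, averaged 89.8 CPM in cKO and 108 CPM in Ctrl (log2 fold change −0.26, SE 0.13, edgeR adjusted p = 0.21; chosen after its values were seen). Celf2, the closest relative of Celf1 in this list, averaged 4.14 CPM in cKO and 4.57 CPM in Ctrl, and Rbm38, the closest relative of Rbm24, 41.6 CPM in cKO and 49.2 CPM in Ctrl (both also chosen after their values were seen). Csdc2, a cold-shock-domain gene, had 7.6 and 11.3 CPM in cKO pools 1 and 2, against 15.8, 18.7 and 23.9 CPM in Ctrl pools 1, 2 and 3. Its log2 fold change was −1.04 (SE 0.27, edgeR adjusted p = 0.0537). Csdc2 and Tdrd3 were also named after their values were seen. Ybx1, an abundant cold-shock-domain gene, had means of 330 CPM in cKO and 225 CPM in Ctrl (log2 fold change 0.55, SE 0.14, edgeR adjusted p = 0.052), and both DESeq2 and limma called it higher. The median log2 fold change of the 13 was −0.24, against −0.06 over all genes tested.

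RNA granule and decay factors were tested for all 31 genes of the list. EdgeR called 0 of them, where it called 13.5% of all genes tested. At an unadjusted p under 0.05, 5 were higher and 6 lower, where 14.8% of all genes were higher and 17.4% lower. DESeq2 called 3 higher and 2 lower, and limma on log2(FPKM + 1) 2 higher and 0 lower. The most abundant by mean CPM over the 5 libraries were Usp10, a G3BP-binding deubiquitinase gene (68.0 CPM in cKO, 86.7 CPM in Ctrl), and Pabpc1, which encodes the poly(A)-binding protein (76.8 CPM in cKO, 52.6 CPM in Ctrl), with edgeR adjusted p = 0.314 for Usp10 and 0.129 for Pabpc1. Of 28 tested splicing and stability regulators edgeR called 1 higher and 0 lower (3.57%, against 13.5% of all genes tested). DESeq2 called 3 higher and 2 lower, and limma 1 higher and 0 lower. The edgeR call was Msi2, an RNA-binding translation regulator, at 10.6 and 10.2 CPM in cKO pools 1 and 2 against 3.85, 5.32 and 5.76 CPM in Ctrl (log2 fold change 1.06, SE 0.25, edgeR adjusted p = 0.0425), which DESeq2 called too and limma did not. Srsf3 and Elavl1, the most abundant of them by mean CPM over the 5 libraries, did not pass in edgeR, though DESeq2 called Elavl1 lower: Srsf3 averaged 46.7 CPM in cKO and 51.3 CPM in Ctrl, and Elavl1 26.8 CPM in cKO and 38.0 CPM in Ctrl. In the microRNA pathway edgeR called 0 of 12 tested genes higher and 1 lower (8.33%, against 13.5% of all genes tested). DESeq2 called 2 higher and 1 lower, and limma 0. The gene lower in both edgeR and DESeq2 was the microprocessor nuclease gene Drosha, at 12.0 and 9.5 CPM in cKO against 18.4, 18.9 and 21.6 CPM in Ctrl (−0.87, SE 0.19, edgeR adjusted p = 0.0354). Tnrc6b, the most abundant gene of that list in each group's mean CPM, averaged 28.3 CPM in cKO and 33.1 CPM in Ctrl.

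By the deposited annotation, RNA binding held 921 genes, all 5 of these among them, of which 744 were tested, with 14 (1.88%) higher and 46 (6.18%) lower in edgeR, against 5.76% higher and 7.73% lower over all genes tested. DESeq2 called 45 higher and 77 lower of them, and limma 58 higher and 24 lower. Over all genes DESeq2 called 10.3% higher and 13.0% lower, and limma 11.8% higher and 6.34% lower. For mRNA binding, which holds Tdrd7 and Celf1, 187 were tested, with 4 (2.14%) higher and 8 (4.28%) lower in edgeR. For the same term DESeq2 called 18 higher and 23 lower, and limma 20 higher and 4 lower. In edgeR the stress granule term had 3 higher (4.05%) and 4 lower (5.41%) of 74, the P-body term 3 higher (3.9%) and 4 lower (5.19%) of 77, and mRNA 3'-UTR binding 1 higher (1.37%) and 4 lower (5.48%) of 73. In all 5 terms edgeR and DESeq2 called more genes lower than higher, and limma more higher than lower, as each did over all genes. Median log2 fold changes of these 5 terms ran from −0.26 (P-body) to −0.05 (RNA binding), against −0.06 over all genes tested.

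Of 10 messages known from mouse lens or other work as downstream of the 5 proteins, 9 were tested. EdgeR called 1 lower (Pax6) and 0 higher, where 7.73% of all genes tested were lower and 5.76% higher. DESeq2 called 1 higher and 3 lower, and limma 1 higher and 2 lower. Fitted log2 fold changes were above 0 for 3 and below 0 for 6, with a median of −0.47. Over all genes tested, 5527 were above 0 and 6197 below 0, with a median of −0.06. The list holds messages that the proteins stabilise and others that they restrain, so this median does not describe 1 kind of control. Pax6, the lens transcription factor gene whose translation CELF1 restrains in mouse lens, had 11.0 and 8.79 CPM in cKO pools 1 and 2 against 39.8, 34.0 and 34.9 CPM in Ctrl pools 1, 2 and 3 (−1.87, SE 0.18, edgeR adjusted p = 0.0063). Pax6 is also in the epithelial marker list, of which 4 of 9 were lower. Prox1, a second such target, had 233 and 175 CPM in cKO against 140, 151 and 159 CPM in Ctrl (0.44, SE 0.17, edgeR adjusted p = 0.128). RNA levels do not measure translation, so control by CELF1 was not tested for either gene.

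Dnase2b, the fibre nuclease gene that CELF1 is needed for in mouse lens, had 155 and 40.9 CPM in cKO against 161, 210 and 162 CPM in Ctrl. Pool 1 of cKO was thus near the Ctrl pools and pool 2 well below them (−0.86, SE 0.52, edgeR adjusted p = 0.309). Celf1 itself was lower in cKO pool 1 than in cKO pool 2. A link between the levels of Celf1 and Dnase2b was not tested. The cell-cycle inhibitor gene Cdkn1a, which CELF1 represses in lens, had 20.5 and 18.1 CPM in cKO against 5.24, 4.59 and 0.614 CPM in Ctrl, with fractional counts in 3 libraries (2.48, SE 0.72, edgeR adjusted p = 0.0698). It did not pass in edgeR, and both DESeq2 and limma called it higher. Cdkn1b, a related inhibitor gene, was near 1 CPM in every library (−0.03, edgeR adjusted p = 0.979).

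Hspb1, a small heat-shock protein gene reduced in Tdrd7-deficient mouse lenses, had 1032 and 298 CPM in cKO against 2561, 1726 and 2004 CPM in Ctrl. Both cKO pools were below every Ctrl pool, but they differed widely from each other, and the change did not pass in edgeR (−1.66, SE 0.52, edgeR adjusted p = 0.0829); DESeq2 and limma on log2(FPKM + 1) did call it. Epha2, a receptor gene also reduced in such lenses, had 7.43 and 11.2 CPM in cKO against 14.8, 17.7 and 11.3 CPM in Ctrl (−0.65, SE 0.28, edgeR adjusted p = 0.172). The crystallin gene Crybb3, a further gene tied to Tdrd7, averaged 27390 ± 4148 CPM in cKO (SD, n = 2) and 37980 ± 4082 CPM in Ctrl (SD, n = 3), and did not pass in edgeR (−0.47, adjusted p = 0.138) or limma, while DESeq2 called it lower. Sox2, a message that RBM24 stabilises in the developing eye of mice, had 7.92 and 6.78 CPM in cKO against 5.66, 7.47 and 6.1 CPM in Ctrl (0.20, edgeR adjusted p = 0.618).

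Of 16 Wnt pathway genes around CAPRIN2, 14 were tested and edgeR called 0, where it called 13.5% of all genes tested. At an unadjusted p under 0.05, 1 was higher and 4 lower, where 14.8% of all genes were higher and 17.4% lower. DESeq2 called 0 higher and 2 lower (Dvl2 and Ctnnb1), and limma 0 higher and 1 lower (Dvl2). Ctnnb1, the β-catenin gene, averaged 204 CPM in cKO and 280 CPM in Ctrl (−0.46, SE 0.14, edgeR adjusted p = 0.0767). Ccny, whose product cyclin Y acts with a partner kinase that phosphorylates LRP6, averaged 16.0 CPM in cKO and 17.9 CPM in Ctrl. Lrp6 itself, chosen after its values were seen, had 29 and 192 counts in cKO pools 1 and 2 and 45, 29 and 55 in Ctrl (1.15, SE 0.71, edgeR adjusted p = 0.317).

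**Figure D4:**
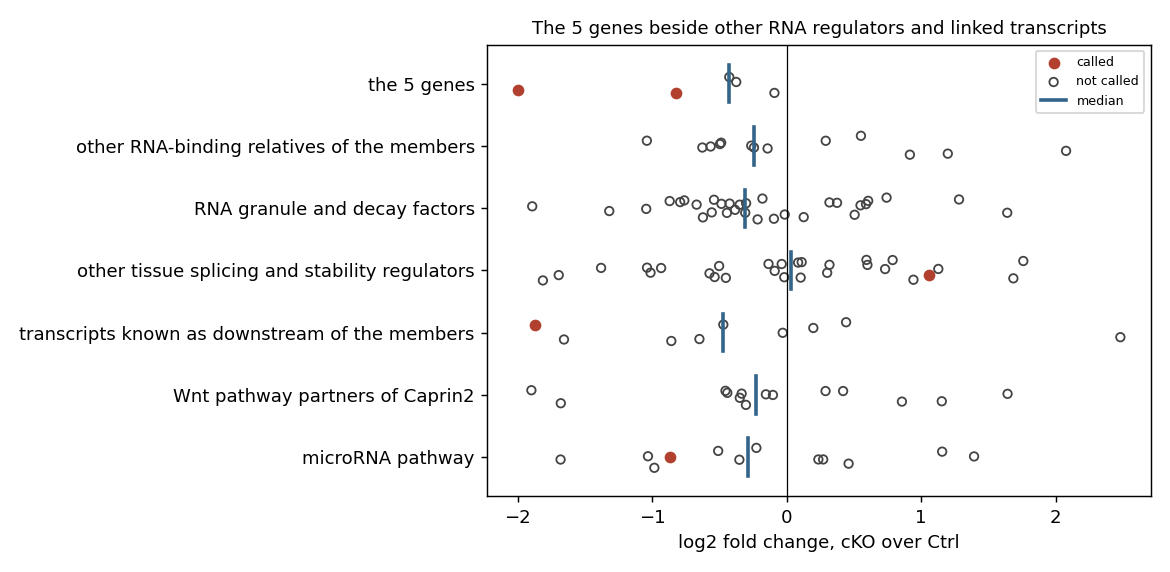
Log2 fold change, cKO over Ctrl (horizontal axis), of every tested gene of the 5 RNA-binding genes and of 6 lists; filled points were called by edgeR at an adjusted p under 0.05, open points were not, and the vertical bar is the median. Caprin2 and Tdrd7 are the only filled points in the top row, and the lists below hold 1 or 0 filled points each.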

How the data were processed

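Poly(A) RNA of 2 cKO and 3 Ctrl lens pools was sequenced. The authors deposited expected counts (estimated counts, not scaled between libraries) and FPKM (scaled to gene length and depth by the authors, per the file headers) for each gene. RSEM, Trimmomatic and GRCm39 appear in the submitters' processing notes; neither aligner nor strandedness is given in the sources used here. None of the 5 genes had a fractional count in any library. Expected counts were rounded, filtered with filterByExpr (minimum count 10, minimum total 15; 11724 of 22183 genes kept), scaled by TMM and compared by edgeR's quasi-likelihood F test without a block (edgeR 4.0.16, R 4.3.3), with Benjamini-Hochberg adjustment over all genes tested. Calls required an adjusted p under 0.05. The SE came from the F statistic, and 95% intervals used 3 residual plus 3.26 prior degrees of freedom. DESeq2 1.42.0 and limma 3.58.1 were alternatives, and the script was tested on simulated data. The labels do not say which pools shared a litter, so p-values measure the spread between pools. For 20 shared symbols, the identifier with the most counts was used. The genes and lists were chosen with earlier results of these data known. The rule for named genes took the 5 genes, the 3 genes nearest to each, Yap1, all 10 downstream messages, and from each list the 2 genes with the highest level plus the 2 called ones that changed most, and for cell markers the summed level; Eno1, Hspa8, Dvl2, Ddx3y and marker genes named singly were picked after their values were seen. Intervals and floors cover counting or replicate error only. Protein sequences were not used here. Values of 2 genes that the rule for named genes selects are not reported here.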

Additional observations from a re-analysis of the deposited data

How the results depend on the processing

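Tdrd7 and Caprin2 stayed negative under all 12 alternatives, and Celf1 and Rbm24 did too. Carhsp1 changed sign with library totals (0.14), log2(FPKM + 1) (0.10), log2(FPKM + 0.1) (0.10) and without cKO pool 1 (0.12), and passed nowhere. With 1 library left out, log2 fold changes ran from −0.87 to −0.79 (Tdrd7), −2.15 to −1.88 (Caprin2), −0.73 to −0.19 (Celf1), −0.41 to −0.28 (Rbm24) and −0.36 to 0.12 (Carhsp1). Calls numbered 6 to 2197 higher and 15 to 2964 lower, lowest without Ctrl pool 2 and highest without cKO pool 2, where 1 cKO pool was left and assumed to vary like Ctrl.

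Higher genes numbered 1234 with library totals, 1209 with DESeq2, 1380 with log2(FPKM + 1) and 1402 with log2(FPKM + 0.1), and lower genes 1521 with DESeq2; the cause was not tested. With the replicate number as a block, 68 genes were higher and 107 lower, Tdrd7 (−0.83, edgeR adjusted p = 0.141) was no longer called, and Caprin2 (−1.98, edgeR adjusted p = 0.0391) still was. The block left 1 residual degree of freedom. Labels do not say what the numbers share, so pools were not treated as pairs. Same-numbered pools correlated at 0.112 (number 1) and −0.0842 (number 2) in their deviations from group means. With 2 cKO pools, the deviations of these pools mirror each other, so the correlations cannot show whether the numbers mark pairs. With 2 cKO pools, the 95% intervals of Celf1, Rbm24 and Carhsp1 each span more than 0.7 on the log2 scale, and the exact test cannot go below 0.1.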
